A study of Mus musculus with 12 samples.

Results

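The genes described here encode 10 kinesin heavy chains that carry cargo along axonal microtubules: Kif5a, Kif5b, Kif5c, Kif1a, Kif1b, Kif3a, Kif3b, Kif3c, Kif21a and Kif21b. They were chosen by gene symbol, and all 10 were found among the 12158 genes of the deposited expression table. Kinesins are motors that walk along microtubules and turn the energy of ATP into movement, mostly from the cell body toward the axon tip. Neurons depend on them to supply distant synapses with vesicles, mitochondria and membrane proteins, and different families take different cargo. Inherited changes in KIF5A, KIF1A and KIF21A cause nerve disorders in people.

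The study dissected whole forebrain from C57BL/6N mice at embryonic days e12.5, e14.5 and e17.5, on the day of birth (P0), and in adult mice, given as P56 in the labels and as older than P56 in the protocol. The mice were wild type or carried 1 germline deletion allele of Chd8 (Chd8+/del5), a chromatin remodeler gene linked to autism, and wild type littermates served as controls. RNA sequencing gave 44 libraries: 8 at e12.5, 9 at e14.5, 10 at e17.5, 11 at P0 and 6 in adults. The library names show the stage but not a labelled genotype, so each stage below holds wild type and heterozygous libraries mixed, no genotype comparison was made, and no genotype was read from the Chd8 level. Libraries are numbered within a stage by their order in the table, which is a name only.

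Levels are log2 RPKM, reads scaled by gene length and by library size, on a log scale whose base of 2 was inferred. They are compared here between genes and between stages, but some stage differences depended on the scaling, as given below. Each level is given as the median over the libraries of a stage, with the lowest and highest library. A gene was called higher or lower between 2 stages when every library of one stage lay above every library of the other, and "rose" and "fell" are used only in that sense. No p-value was computed, because mixed genotypes are not replicates of 1 group. Read depth is not known from the log2 RPKM values. In whole tissue, fewer cells of a type and less RNA per cell cannot be told apart.

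Chd8 itself had stage medians between 3.72 in adults and 4.31 at e12.5, with single libraries from 3.08 to 4.96. All 8 neuronal markers were measured, and their summed level (linear RPKM) was 1190 to 1650 at e12.5, 1800 to 2410 at e14.5, 3300 to 3910 at P0 and 4080 to 5200 in adults. The 11 progenitor markers summed to 1400 to 2000 at e14.5 and 803 to 1060 at P0. Adult library 1 stood apart: its progenitor sum was 468, against an adult median of 114, and its oligodendrocyte marker sum of 881 was the lowest of the adult range, which reached 2150. Libraries at e12.5 were sequenced as paired-end 100 bp reads and all others as single-end 50 bp reads, so stage and read type cannot be told apart wherever e12.5 is compared.

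Kif3a and Kif3b encode the paired motor subunits of kinesin-2, and their stage medians moved in the same direction at each step, as described below. Their promoters are shown for that reason, from 250 bases before to 50 bases after the start of each gene, 5′ to 3′ on the gene strand, from RefSeq on build GRCm38.p6. Capitals mark matches to 6 motifs searched on both strands: the SP1 box GGGCGG, the CCAAT box, the TATA box TATAAA, the cAMP response element TGACGTCA, the E-box CACGTG and the NRF1 core GCGCATGCG.
Kif3a, chr11:53567119-53567418, plus strand: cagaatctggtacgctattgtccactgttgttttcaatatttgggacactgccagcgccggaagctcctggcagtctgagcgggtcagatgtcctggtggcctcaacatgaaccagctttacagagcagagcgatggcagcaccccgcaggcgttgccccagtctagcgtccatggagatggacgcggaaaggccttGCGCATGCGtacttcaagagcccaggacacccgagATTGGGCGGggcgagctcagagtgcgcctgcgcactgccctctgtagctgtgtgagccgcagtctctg
Kif3b, chr2:153291166-153291465, plus strand: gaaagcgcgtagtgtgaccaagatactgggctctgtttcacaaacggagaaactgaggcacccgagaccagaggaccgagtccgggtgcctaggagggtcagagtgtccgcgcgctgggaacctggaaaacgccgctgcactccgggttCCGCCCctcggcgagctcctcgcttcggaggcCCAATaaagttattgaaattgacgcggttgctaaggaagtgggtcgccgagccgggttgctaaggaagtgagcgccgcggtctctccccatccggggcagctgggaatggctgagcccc
Counting from 1 at the first printed base, the Kif3a promoter held the NRF1 core at 198 to 206, a CCAAT box on the other strand at 233 to 237 and an SP1 box at 236 to 241, the last 2 overlapping. The Kif3b promoter held an SP1 box on the other strand at 150 to 155 and a CCAAT box at 182 to 186. Both genes therefore had an SP1 box and a CCAAT box in this window, as did Kif1b. The part of these boxes in the levels was not tested. Of 9 promoter entries for 7 of the 10 genes, 6 held an SP1 box and 4 a CCAAT box. Of 32851 mouse promoters of the same length, 35.7% held an SP1 box, 37.4% a CCAAT box and 1.75% the NRF1 core. The other shares were 13.6% for the TATA box, 7.15% for the E-box and 1.79% for the cAMP response element. Both windows were rich in G and C, 59.7% in Kif3a and 62.0% in Kif3b, against a median of 52.7% over all promoters. They held 18 and 26 CG pairs, against a median of 7. A match is a description of the letters and not a binding site.

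Kinesin-1 is built from the Kif5 heavy chains and carries mitochondria, vesicles and, in the case of Kif5a, neurofilament proteins. Kif5b is made in most cell types, whereas Kif5a and Kif5c are enriched in neurons. The 3 genes followed different courses through development. Kif5a had a median of 4.50 at e12.5 (4.27 to 4.89), 5.42 at e14.5 (4.92 to 5.72), 6.03 at e17.5 (5.83 to 6.29), 6.60 at P0 (6.40 to 6.96) and 9.25 in adults (8.72 to 9.60). Its ranges were apart at every step, and it was the only one of the 10 genes called higher in all 5 stage comparisons with values as deposited. After quantile normalization its differences between neighbouring stages before birth were 0.99, 0.65 and 0.42, with overlapping ranges. The step to the adult was the widest: Kif5a rose by 2.64 on the log2 scale over P0, 6.24-fold, with a gap of 1.76 between the ranges. At e12.5 it ranked eighth of the 10 genes, above 68.56% of all genes, and in adults it ranked first, above 99.69% of all genes.

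Kif5c had the highest level of the 10 genes from e12.5 to P0 and changed slowly. Its median was 6.65 at e12.5 (6.54 to 6.94), 6.90 at e14.5 (6.48 to 7.0), 7.14 at e17.5 (6.98 to 7.37), 7.34 at P0 (7.18 to 7.49) and 7.58 in adults (7.49 to 7.65). It rose between e14.5 and P0 by 0.44, 1.35-fold, a call lost after quantile normalization at 0.39. The ranges at P0 and in adults were apart by only 0.01 after a difference of 0.24, and this call depended on scaling: the difference was 0.17 with overlapping ranges when libraries were set to equal medians, and -0.03 after quantile normalization. Kif5b ran the other way before birth. Its median was 5.40 at e12.5 (5.32 to 5.54), 5.03 at e14.5 (4.55 to 5.17), 5.06 at e17.5 (4.88 to 5.29), 4.80 at P0 (4.57 to 4.90) and 5.29 in adults (4.91 to 5.75). Kif5b fell by 0.36 between e12.5 and e14.5, and it was the only one of the 10 genes that fell at a step before birth. Its adult level was 0.49 above P0 with a gap of 0.01, and that call was lost under both scalings, at 0.41 with equal medians and 0.33 after quantile normalization.

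These courses changed the makeup of kinesin-1 message. Kif5a made up a median of 13.8% of the summed linear RPKM of the 3 genes at e12.5, 21.2% at e14.5, 27.8% at e17.5, 33.8% at P0 and 72.5% in adults. The Kif5c share was 60.8% at e12.5 and 55.9% at P0, then 22.9% in adults, although its own level did not drop. The Kif5b share was 25.8% at e12.5, 9.9% at P0 and 4.77% in adults. The summed level went from 165 at e12.5 (154 to 198) through 190 at e14.5, 240 at e17.5 and 294 at P0 (258 to 330) to 839 in adults (638 to 1020). Within a library, Kif5a lay below Kif5c by a median of 2.12 at e12.5 and 0.71 at P0, and above it by 1.67 in adults. The sign was the same in every library of each of these stages: the lowest Kif5a excess among adults was 1.23, in library 1, and the others ran from 1.42 to 2.01.

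**Figure D1:**
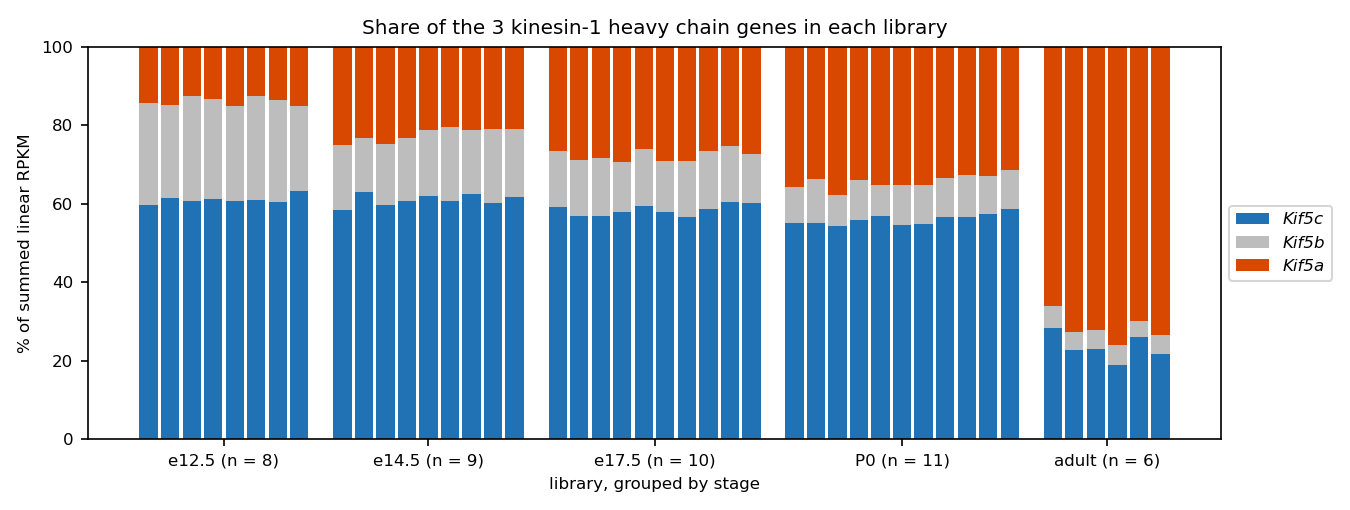
Percent of the summed linear RPKM of Kif5a, Kif5b and Kif5c in each of the 44 libraries (bars), grouped by stage on the x axis. Kif5c holds the largest share in every library up to P0 (stage medians 60.8% at e12.5 and 55.9% at P0), and Kif5a in all 6 adult libraries (66.1% to 75.9%).

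Kinesin-3 motors work as fast, long-range carriers. Kif1a moves synaptic vesicle precursors and dense core vesicles, and Kif1b is made as isoforms that carry vesicle precursors or mitochondria, which gene level values do not separate. Kif1a had a median of 5.43 at e12.5 (5.20 to 5.81), 6.08 at e14.5 (5.52 to 6.24), 6.71 at e17.5 (6.53 to 7.01), 7.22 at P0 (6.92 to 7.74) and 7.66 in adults (7.61 to 7.91). It rose between e14.5 and P0 by 1.13, 2.20-fold, whereas its P0 and adult ranges overlapped after a difference of 0.45. Kif1b had a median of 5.40 at e12.5 (5.19 to 5.73), 5.40 at e14.5 (4.71 to 5.71), 5.50 at e17.5 (5.29 to 5.69), 5.67 at P0 (5.43 to 6.00) and 6.09 in adults (5.96 to 6.23). None of the 5 comparisons put its ranges apart, though the P0 and adult ranges shared only 0.03 and came apart without adult library 4. The pair was level at e12.5, where Kif1a minus Kif1b within a library was 0.04 in the median (-0.03 to 0.31). It stood at 0.60 at e14.5 (0.45 to 0.81), 1.22 at e17.5 (1.12 to 1.43), 1.54 at P0 (1.39 to 1.74) and 1.59 in adults (1.54 to 1.68). The ranges of this difference did not overlap between e12.5, e14.5 and e17.5, so Kif1a pulled away from Kif1b before birth. In shares, Kif1a was 50.7% of the pair at e12.5, 74.4% at P0 and 75.1% in adults.

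Kinesin-2 works as a complex of Kif3a with Kif3b and the accessory protein Kifap3. It carries membrane cargo in axons and also drives transport inside cilia. Kif3c is a neuron-enriched heavy chain that can pair with Kif3a. Kif3a had a median of 4.83 at e12.5 (4.76 to 5.05), 5.46 at e14.5 (5.24 to 5.78), 6.10 at e17.5 (5.79 to 6.33), 6.45 at P0 (6.30 to 6.61) and 5.76 in adults (5.71 to 5.89). Kif3b had a median of 3.93 at e12.5 (3.81 to 4.01), 4.35 at e14.5 (4.11 to 4.43), 4.82 at e17.5 (4.47 to 4.90), 5.06 at P0 (4.79 to 5.24) and 4.55 in adults (4.35 to 4.73). Both had their highest median at P0, though the e17.5 and P0 ranges overlapped, by 0.04 for Kif3a and 0.11 for Kif3b. Between e14.5 and P0 Kif3a rose by 0.99, 1.98-fold, and Kif3b by 0.71, 1.63-fold. After birth both fell, Kif3a by 0.69 (1.62-fold) and Kif3b by 0.51 (1.42-fold). The gaps between the ranges were 0.41 and 0.06, so neither call held when a gap of 0.5 was required. Kif3a minus Kif3b within a library had a median of 0.94 at e12.5 (0.87 to 1.07), 1.42 at P0 (1.06 to 1.72) and 1.25 in adults (1.07 to 1.40). Within a stage the 2 genes could part: P0 library 6 held the lowest Kif3a value of its stage, 6.30, and the highest Kif3b value, 5.24.

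Kif3c had an earlier plateau. Its median was 4.47 at e12.5 (4.29 to 4.62), 5.31 at e14.5 (5.0 to 5.43), 5.63 at e17.5 (5.29 to 5.76), 5.55 at P0 (5.42 to 5.67) and 5.52 in adults (5.30 to 5.69). It rose by 0.84 between e12.5 and e14.5, and no later comparison put its ranges apart, the e14.5 and P0 ranges overlapping by 0.01 and coming apart at 0.30 when libraries were set to equal medians. The adult median of Kif3c differed from P0 by -0.03, inside the spread of both stages. The accessory subunit Kifap3 had the shape of Kif3a and Kif3b: it rose by 0.96 from a median of 6.15 at e14.5 to 7.11 at P0, then fell by 0.30 to 6.81 in adults. The Kif3b share of the summed level of the 3 heavy chain genes was 22.7% at e12.5 (21.8% to 23.8%) and 18.7% in adults (17.9% to 19.9%), while the sum went from 65.9 at e12.5 to 168 at P0 and 125 in adults.

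Kif21a and Kif21b belong to the kinesin-4 family and, beyond moving along microtubules, slow or pause microtubule growth. Their called changes, both after birth, went opposite ways. Kif21a had a median of 5.43 at e12.5 (5.27 to 5.56), 5.19 at e14.5 (4.75 to 5.44), 4.78 at e17.5 (4.63 to 4.90), 4.57 at P0 (4.23 to 4.86) and 5.56 in adults (5.45 to 5.66). Its adult level was back near that of e12.5, after it rose by 0.99, 1.99-fold, over P0. The lower level at P0 than at e14.5, a difference of -0.62, left ranges that overlapped by 0.11. Without P0 library 3, the ranges were apart at a difference of -0.65.

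Kif21b had a median of 5.71 at e12.5 (5.51 to 6.03), 6.44 at e14.5 (5.87 to 6.71), 6.38 at e17.5 (6.08 to 6.63), 6.48 at P0 (6.22 to 6.87) and 3.84 in adults (3.24 to 5.51). Between e12.5 and e14.5, where read type also differs, a difference of 0.73 left ranges that overlapped by 0.15. The overlap came from e14.5 library 7 at 5.87, as the next lowest e14.5 library, at 6.22, lay above all of e12.5. Kif21b fell by 2.64 on the log2 scale after birth, 6.22-fold, and went from above 94.08% of all genes at P0 to above 53.63% in adults. The adult libraries read 5.51, 3.78, 3.75, 3.24, 4.05 and 3.90 in order, so library 1 lay far above the other 5. Without it the difference from P0 was -2.70. Kif21b minus Kif21a within a library was 0.31 at e12.5 (0.10 to 0.49), 1.33 at e14.5 (1.08 to 1.51), 1.62 at e17.5 (1.24 to 1.84) and 1.97 at P0 (1.65 to 2.17). In adults it was 0.06 in library 1 and between -2.30 and -1.62 in the other 5, so the order of the pair was turned over in those 5. Kif21b made up 79.6% of the pair at P0, 51.0% in adult library 1 and 16.9% to 24.6% in the other adult libraries.

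**Figure D2:**
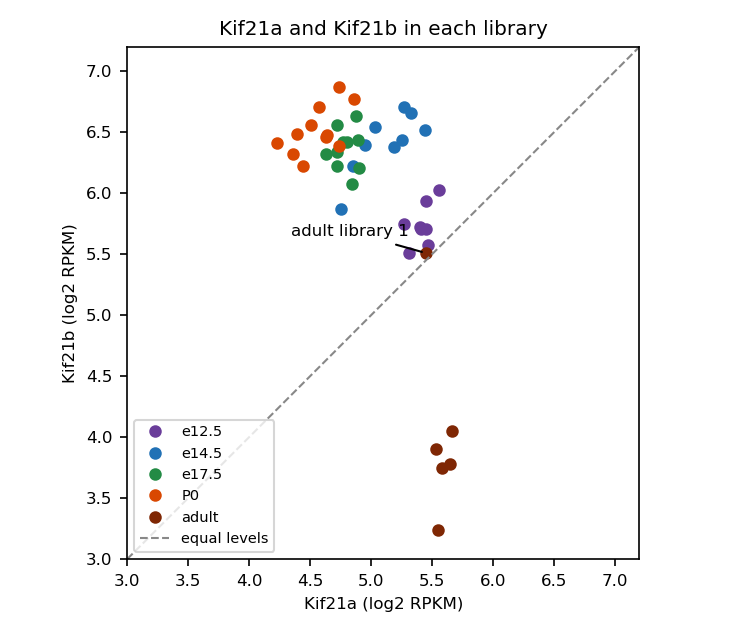
Kif21b against Kif21a, both in log2 RPKM, 1 point per library and coloured by stage, with a dashed line of equal levels. Embryonic and P0 libraries lie above the line, 5 adult libraries lie far below it, and adult library 1 lies on it at a difference of 0.06.

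**Figure D3:**
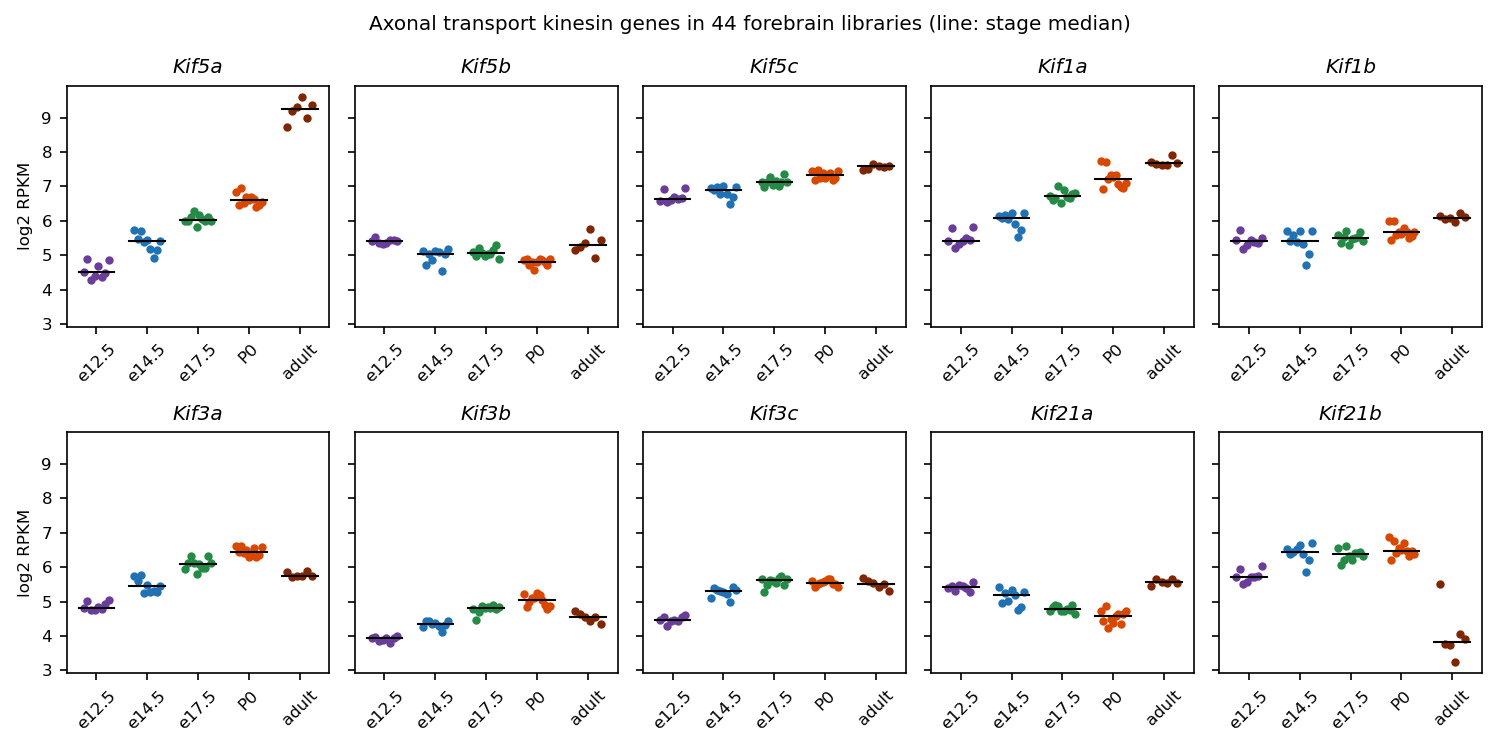
Level of each of the 10 kinesin genes (log2 RPKM) in every library, by stage, with the stage median as a line. Kif5a climbs at each stage to 9.25 in adults, Kif3a and Kif3b have their highest medians at P0, and Kif21b drops to an adult median of 3.84 with library 1 at 5.51.

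Adult library 1 lay between the median of the other adults and that of P0 for the 7 genes called in adults against P0. For the 3 genes not called it did not: Kif1a at 7.72, Kif1b at 6.14 and Kif3c at 5.69 lay above both the adult and the P0 median. On the linear scale it sat 42.1% of the way from the other adults to P0 for Kif21b, 39.0% for Kif5a, 40.2% for Kif5c and 37.6% for Kif5b. The same linear measure was 32.5% for Kif3b, 17.4% for Kif21a and 11.3% for Kif3a. Over the 257 genes whose P0 level exceeded that of the other 5 adults by 3 or more on the log2 scale, its median was 39.5%, with quartiles of 28.9% and 52.5%. On the log2 scale the values spread more widely, at 64.0% for Kif21b, 38.1% for Kif5c, 36.6% for Kif3b, 33.3% for Kif5b, 21.4% for Kif5a, 14.1% for Kif3a and 13.1% for Kif21a, with 69.4% for the 257 genes. The whole difference of the other adults from P0 was small for Kif5c (0.25), Kif3b (-0.52) and Kif5b (0.55) on the log2 scale. Percentages of such short distances shift with small differences between libraries. Library 1 was not always the adult library nearest P0: library 5 was nearer for Kif5b (4.91, against 5.16 in library 1) and reached 5.89 for Kif3a, against 5.85. All 7 adult calls against P0 were as large or larger without library 1, with Kif5a at 2.69, Kif21a at 1.01 and Kif3b at -0.52.

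The order of the 10 genes also changed with age. At e12.5, Kif5c lay 0.93 above Kif21b with no overlap, and the next 5 genes, Kif21b, Kif21a, Kif1a, Kif1b and Kif5b, each overlapped its neighbour in range. Within libraries Kif21b was nevertheless the highest of these 5 in all 8. Kif3b was lowest, 0.54 below Kif3c and apart from it. At e14.5 every neighbouring pair overlapped except Kif5b and Kif3b. At P0 the first 5 genes, Kif5c, Kif1a, Kif5a, Kif21b and Kif3a, each overlapped the next, and a gap of 0.78 in the medians then separated Kif3a from Kif1b. In adults Kif5a stood 1.58 above Kif1a, Kif1a and Kif5c overlapped, and Kif5c stood 1.49 above Kif1b. Kif21b was the lowest in the adult median, with a range that overlapped that of Kif3b because of library 1.

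Across the 10 genes, P0 differed from e14.5 mainly upward. Kif5a, Kif1a, Kif3a, Kif3b and Kif5c rose, none fell and 5 overlapped, with a median difference of 0.35. Over all 12102 genes described, 22.7% rose and 23.1% fell in this comparison, with a median difference of -0.04. From P0 to adult, 4 of the 10 rose (Kif5a, Kif21a, Kif5b and Kif5c), 3 fell (Kif21b, Kif3a and Kif3b) and 3 overlapped. Over all genes, 29.3% rose and 25.2% fell, so the share of the 10 kinesin genes that fell was near the background. With the 2 calls that depended on scaling set aside, 2 of the 10 rose after birth. Kif5a and Kif21b lay outside the central span of all genes, which ran from -1.98 to 2.22 between the 5th and 95th percentiles.

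**Figure D4:**
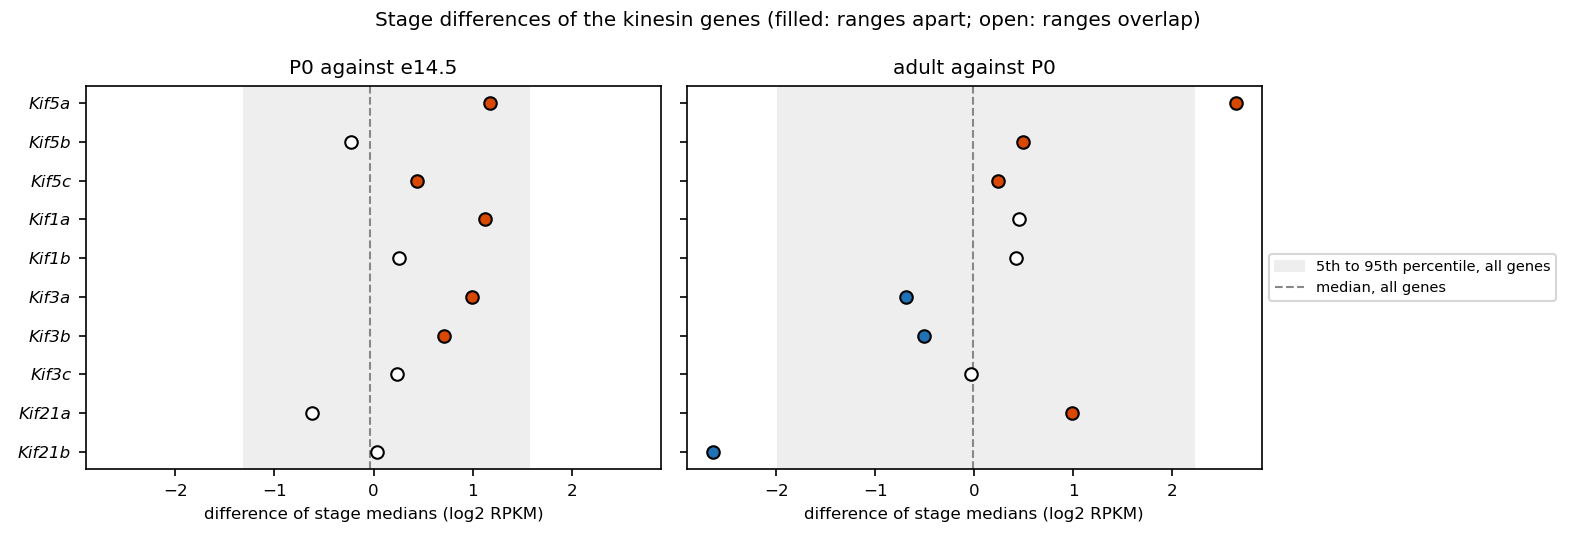
Difference of stage medians (log2 RPKM) for each kinesin gene, P0 against e14.5 on the left and adult against P0 on the right; filled points have ranges apart, open points overlap, and the grey band spans the 5th to 95th percentile of all genes. Kif5a (2.64) and Kif21b (-2.64) lie outside the band in adults, and Kif3a and Kif3b change sides between the panels.

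Single steps before birth were smaller. Between e12.5 and e14.5, where read type also differs, Kif5a rose by 0.92, Kif3c by 0.84, Kif3a by 0.64 and Kif3b by 0.42, and Kif5b fell. Those are 4 up and 1 down of 10, against 23.1% up and 22.3% down over all genes. Between e14.5 and e17.5, Kif1a and Kif3a each rose by 0.63, Kif5a by 0.61 and Kif3b by 0.47, and none fell, against 13.1% up and 12.1% down. After quantile normalization the Kif5a and Kif3a calls of this step were lost. Between e17.5 and P0 only Kif5a rose, by 0.58, and none fell, against 4.89% up and 6.28% down over all genes. These comparisons share stages, so their values are set side by side and not counted as separate support.

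In some libraries most of the kinesin genes lay on 1 side of their stage medians. Library 7 at e14.5 held the lowest value of the 9 libraries in 9 of the 10 genes, the exception being Kif3a. Its median deviation from the stage was -0.46 over the 10 genes, 0.03 over all genes and -0.25 over the 1882 genes that span more than 100000 bases. At P0, libraries 1 and 3 deviated by 0.17 and 0.23 over the 10 genes and by 0.14 and 0.13 over the long genes. At e12.5, library 8 held the highest value in 7 of the 10 genes and library 3 the lowest in 7. Elsewhere this was weaker or absent: median deviations over the 10 genes ran from -0.13 to 0.12 at e17.5 and from -0.04 to 0.05 in adults, where library 1 held 3 lowest and 3 highest values. The part of gene length in these deviations was not tested.

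Cell type markers moved with the same stages. Between e14.5 and P0, all 8 neuronal markers rose and 10 of 11 progenitor markers fell, while 6 of 8 astrocyte markers rose and all 4 measured blood markers fell. The summed blood markers had a median of 3410 linear RPKM at e12.5, 233 at e14.5 and 2.76 at P0. Between P0 and adult, 5 neuronal markers rose and 3 (Map2, Tubb3 and Stmn2) fell. Of the progenitor markers, 7 fell, 1 (Hes1) rose and 3 overlapped. Over all genes, 22.7% rose and 23.1% fell between e14.5 and P0, and 29.3% rose and 25.2% fell between P0 and adult. The 9 measured oligodendrocyte markers summed to 48.5 to 71.1 linear RPKM at P0 and 881 to 2150 in adults, and 7 of them rose. The astrocyte sum went from 275 to 394 at P0 to 823 to 1630 in adults, and the microglial sum from 50.8 to 79.6 at P0 to 142 to 272. The part of these cell types in the kinesin levels was not tested.

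Light chains and adaptors link kinesin-1 to its cargo, and 16 of 17 listed genes were described. Between e14.5 and P0, 6 rose and 1 fell, with a median difference of 0.14. Between P0 and adult, 11 rose and 1 fell, with a median of 0.42, beside the increase in Kif5a. The shares over all genes were 22.7% up and 23.1% down for the first step and 29.3% up and 25.2% down for the second. Klc2, a light chain, rose by 1.09 and then by 1.17. In adults Htt, a scaffold for vesicle transport, rose by 1.59, Mapk8ip3 (JIP3), a cargo adaptor, by 1.41, and Trak2, which ties mitochondria to the motor, by 1.31. Sybu (syntabulin), an adaptor for presynaptic cargo, rose by 1.18 up to P0 and fell by 0.96 afterwards. Klc4 fell by 1.20 up to P0.

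Of the 21 listed partners and adaptors of kinesin-2 and kinesin-3, 17 were described. Between e14.5 and P0, 13 rose and none fell, with a median difference of 0.61. Between P0 and adult the list divided, with 6 higher, 8 lower and a median of -0.09. The same background applies as for the kinesin-1 list, 22.7% up and 23.1% down for the first step and 29.3% up and 25.2% down for the second. Apba1 (Mint1), part of a cargo complex in neurons, rose by 1.75 up to P0, and Ppfia4 (liprin-alpha-4) by 1.73. Arl8a, a small GTPase that recruits Kif1 motors to vesicles and lysosomes, rose by 1.60 up to P0 and fell by 1.35 in adults. The related scaffold genes Lin7b and Lin7c went opposite ways in adults: Lin7b rose by 2.87 and Lin7c fell by 2.06. Camsap3, which binds microtubule minus ends, fell by 1.98.

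Dynein with dynactin is the motor of the opposite direction, toward the cell body. Of 27 described genes, 5 rose and 3 fell between e14.5 and P0, with a median of 0.01, and 8 rose and 5 fell between P0 and adult, with a median of 0.20. Dync1i1, a neuronal intermediate chain, rose by 1.90 between e14.5 and P0 and differed by -0.02 afterwards. Dynlt3, a light chain, rose by 1.27, and Nde1, a dynein regulator needed in dividing progenitors, fell by 2.01. The shares of the list that rose and fell up to P0 were below the 22.7% and 23.1% of all genes. In adults the share that rose was close to the background of 29.3%, and 25.2% of all genes fell. In adults Actr1b, a dynactin subunit, rose by 1.81 and the light chain gene Dynll2 by 1.5. Over the same step the light chain gene Dynlt1a fell by 2.89 and Hook2, a cargo adaptor, fell by 1.35. Dynlt1a has near-identical copies, so its value is uncertain.

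Kinesins of cell division build and move the mitotic spindle. All 15 on the list fell between e14.5 and P0, with a median of -2.21, beside the fall in progenitor markers. Kif11, which pushes spindle poles apart, fell by 2.68, and Kif2c, which takes microtubules apart at centromeres, fell by 2.67. Between P0 and adult 8 fell and none rose, with a median of -2.22, and 14 fell without adult library 1. Over all genes, 23.1% fell up to P0 and 25.2% in adults. Kif18b fell most among the 8, by 4.45, to an adult median of -2.93, a low level at which the size of a fall is uncertain. Kifc1 and Kifc5b are near-identical copies, so reads may be shared between them and their values are uncertain.

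Other kinesins outside both groups were mixed: of 11 described, 3 rose and 1 fell up to P0, and 5 rose and 4 fell in adults. Over all genes, 22.7% rose and 23.1% fell up to P0, and 29.3% rose and 25.2% fell in adults. Kifc2, a neuronal motor of the C-terminal class, rose by 2.92 and then by 1.94, from a median of 1.24 at e12.5 to 7.99 in adults. Kif17, a motor for glutamate receptor vesicles in dendrites, rose by 2.21 and then by 2.35. Kif26a fell by 1.04 and then by 2.75. In adults Kif26b also fell by 2.57.

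Synaptic vesicle proteins are the cargo best known for Kif1a. Of 18 described, 13 rose between e14.5 and P0 (median 1.23) and 14 rose between P0 and adult (median 1.29), and none fell in either, against 22.7% and 29.3% of all genes that rose. Without adult library 1, or without P0 library 1, Syt4 was lower in adults. This gene is named after its values were seen, and its ranges overlapped with all libraries, at -0.39. Rab3b rose by 2.06 and Syn1 by 1.95 up to P0. In adults Vamp1 rose by 4.44, Slc17a7, the vesicular glutamate transporter of cortical neurons, by 4.24, and Syt2 by 3.87. Over the same step the Kif1a ranges overlapped.

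Tubulins, microtubule-associated proteins and neurofilaments form and dress the tracks. Of 24 described, 17 rose and 1 fell up to P0 (median 0.81), and 10 rose and 13 fell in adults (median -0.59), against 22.7% up and 23.1% down, and then 29.3% up and 25.2% down, over all genes. Dcx (doublecortin), a protein of migrating young neurons, fell by 5.59 in adults and the tubulin gene Tubb2b by 5.21. Tuba4a, a tubulin of mature neurons, rose by 4.09, and Nefh, the heavy neurofilament chain, by 3.59. Tubulin genes are alike in sequence, so reads may be shared between copies and their values are uncertain.

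**Figure D5:**
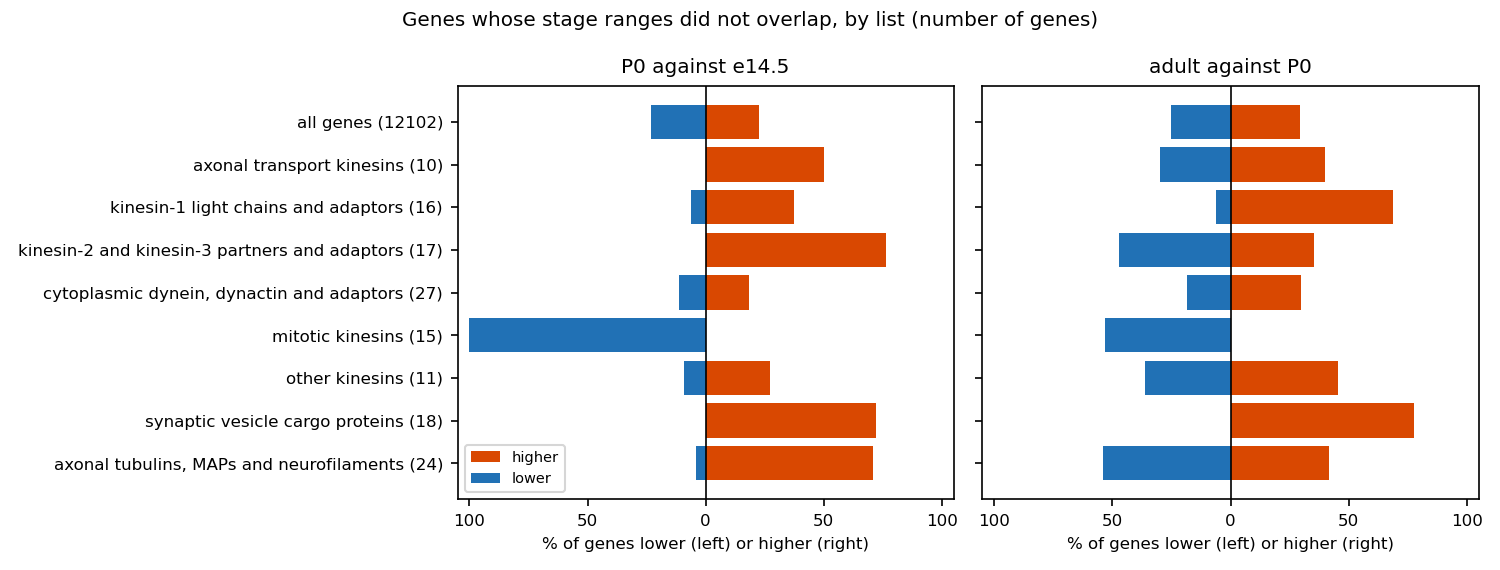
Percent of the genes of each list whose stage ranges did not overlap, higher to the right and lower to the left, with P0 set against e14.5 on the left and adults against P0 on the right, all 12102 genes at the top, and the number of genes in brackets. All 15 mitotic kinesins were lower at P0, while 13 of 17 partners of kinesin-2 and kinesin-3 were higher.

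For each kinesin gene, the 3 genes with the nearest stage profile were found among 11807 genes, by the mean absolute difference over the 5 stage medians after centring each gene on its own mean. With 5 points that share libraries, this is a description and carries no test. Nearest to Kif5a were Prrt3 (0.062), Rassf5 (0.069) and Syt1 (0.071), the last a calcium sensor of vesicle release with medians of 4.25 at e12.5, 6.40 at P0 and 8.90 in adults. Nearest to Kif5c was Lypd6 (0.013), and nearest to Kif1a was Tpd52l1 (0.032). Nearest to Kif3a was Ppapdc1b (0.040), and nearest to Kif3b was Osbpl2 (0.033), both with the highest median at P0. Nearest to Kif3c was Mfsd9 (0.025), to Kif1b Cinp (0.028) and to Kif5b Ssr1 (0.028). Kif21a was followed by Pcca (0.044), with medians of 3.37 at e12.5, 2.61 at P0 and 3.44 in adults. By this measure, which grows with the size of a gene's changes, Kif21b had the least close neighbours, Arrdc4 (0.082), Snhg5 (0.098) and Samd14 (0.105). Their Pearson correlations with Kif21b over the 5 stage medians were 0.995, 0.996 and 0.993, against 0.982 for Kif5b and Ssr1.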

How the data were processed

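Per the labels' protocols, RNA from whole forebrain was made into stranded mRNA libraries. STAR 2.4.2a and build mm9 are named in the submitters' processing notes; no source used here names the counter, the annotation or the prior count. The authors deposited log2 RPKM values for 44 libraries; the base is not stated, and base 2 was taken because 65.4% of steps above shared low values were whole on that base (tolerance 0.02), against 33.3% for bases e and 10. These percentages were medians over 17 libraries, from 57 genes. Single libraries ranged from 38.5% to 77.4% for base 2, 7.69% to 64.3% for base e and 16.7% to 84.6% for base 10. Because these ranges overlap, base 2 remains an assumption. Every fold, share and linear RPKM rests on it. All 44 columns matched a stage but no single sample. Depth is unknown, which limits precision for low genes.

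Genes with a mean at or below -2 (56) were left out. Stage medians and ranges were computed with pandas 2.3.3 and numpy 2.4.6, and the range rule was tested on simulated data. Alternatives were other scalings, filters, a required gap of 0.5, means, a pseudocount of 1, single libraries left out and, added after seeing the data, each e17.5 name set alone. The genes named are all 10 kinesins, Chd8, up to 4 called genes of largest difference per list and comparison, and the 3 nearest profiles; Kifap3 and single markers were named after their values were seen. Genes, lists and markers were chosen with earlier results of these data known. Chd8 binding data were not used here.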

Additional observations from a re-analysis of the deposited data

Results flagged for a closer look

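In 40 sets of 6 to 10 libraries (each kinesin gene at e12.5, e14.5, e17.5 and in adults; P0, with 11 libraries, was not searched), 3 held a highest or lowest library far from its nearest neighbour for the range of the set. Chance flags about 1 set in 20, which is 2 of 40. Kif21b in adult library 1 was at 5.51, far above the other 5 adults. Kif1a in adult library 5 was at 7.91, above the other adults. Kif3b in e17.5 library 2 was at 4.47, below the other 9 libraries of that stage.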

How the results depend on the processing

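No paired analysis was possible because the columns carry no replicate numbers and no labelled genotype. Requiring ranges apart by at least 0.5 left 3 kinesin genes higher at P0 than e14.5, 2 higher and 1 lower in adults than P0, 0 higher and 0 lower at e14.5 than e12.5, 0 higher at e17.5 than e14.5 and 0 higher at P0 than e17.5. The share of all genes apart in these comparisons was then 16.4%, 22.7%, 14.1%, 4.88% and 0.14%. With libraries set to equal medians, 2 of the 10 were higher in adults than P0. Quantile normalization also gave 2, with Kif5c reversed to -0.03, and 2 higher at e17.5 than e14.5 and 0 higher at P0 than e17.5.

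Leaving out 1 library gave 5 to 6 higher and 0 to 1 lower at P0 than e14.5 (1 without P0 library 3, Kif21a). It gave 4 to 5 higher in adults than P0, 4 to 5 at e14.5 than e12.5 and 4 to 6 at e17.5 than e14.5. At P0 against e17.5, 1 to 2 were higher (2 without e17.5 library 4) and 0 to 1 lower (1 without e17.5 library 10). The share of all genes apart in these comparisons ran from 45.9% to 48.9%, 54.7% to 61.2%, 45.6% to 49.9%, 25.3% to 29.0% and 11.2% to 13.8%. With only the first e17.5 name set, 1 was lower at P0 and 22.1% of genes were apart. With only the second, 2 were higher. Between the 2 sets of 5, 0 genes were higher and 1 was lower. Filters, means and the pseudocount moved no count of the 10 by over 1.5 times. Among single gene differences under alternatives, 1270 kept direction and call, 24 lost the call, 14 gained it, 21 uncalled ones changed sign and 1 reversed. Calls with gaps of 0.01 are at the limit of the spread: Kif5b and Kif5c in adults against P0, and Kif3a at e17.5 against e14.5. The next smallest gaps were 0.03 for Kif5a at e14.5 against e12.5 and for Kif3b at e17.5 against e14.5. For Kif3b in adults against P0 the gap was 0.06.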
